A study of Mus musculus with 6 samples.

Results

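The RNA of sperm from mice fed normal chow (NC) was split by an anti-m6A antibody into a bound fraction (IP) and an unbound supernatant fraction (Sup), and both fractions were read on the same array. The 3 NC arrays, out of 6 arrays in the series, were examined here, and every comparison of IP with Sup was made within an array. The males were C57BL/6N mice kept on normal chow from 5 to 15 weeks of age, and the remaining 3 arrays hold sperm of males fed a high-fat diet (HFD, 60% fat) over the same 10 weeks. The sample labels give an age of 10 weeks instead. Each array holds one sample, and per the design text the replicates came from different donors. Whether a replicate pooled several males is not given in the sources used here. Per the methods, the sperm came from minced epididymis after lysis of somatic cells. IP was always labeled with Cy5 and Sup always with Cy3, without a dye swap, so a property of the dye cannot be told apart from a property of the fraction.

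N6-methyladenosine (m6A) is a methyl mark on adenosine inside RNA, set by a methyltransferase complex around METTL3, removed by demethylases such as ALKBH5 and FTO, and bound by reader proteins that affect the decay, splicing and translation of the RNA. Mature sperm are largely silent in transcription, so their RNA is mostly carried over from spermatogenesis or gained in the epididymis. An antibody pull-down sorts whole RNA molecules or pieces, and a transcript with any marked adenosine can enter the bound fraction.

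Each array carried 62976 spots, of which 61537 were not control spots, and these held 60706 distinct probes for sample RNA. Per the methods the array is one for mRNA and lncRNA, but the RNA class of each probe is not given. The files pair a database accession with only 50 of the 60706 probes, so most results below describe probes and not genes. The level of a probe in each channel was its median signal minus the local background, relative to 14 spike-in probes. The m6A level was taken as the share of the RNA found in the IP, 100 × IP/(IP + Sup), and the RNA amount as IP + Sup. Both fractions were well above background on all 3 NC arrays for 15453 probes. After 292 probes with a non-uniform spot were left out, 15161 probes, or 25% of the 60706, were compared. A further 29244 probes, or 48.2%, were not well above background in either fraction on any NC array. Only 479 probes (0.789%) were well above background in IP on every NC array and in Sup on none, and 807 (1.33%) showed the opposite. NC 1 was the dimmest array. Its IP signal was well above background for 28.3% of probes, against 42.1% on NC 2 and 45.0% on NC 3, and its Sup signal for 35.3%, against 39.2% and 44.2%. None of the sperm, somatic or blood cell markers listed for this work lies on a probe with a name, and the labelled tissue was therefore not checked against marker genes.

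The m6A level was spread widely over the probes and centred below an even split. On NC 1 the median probe had a level of 38.5%, against 46.0% on NC 2 and 44.1% on NC 3, with a mean of 42.9% ± 3.88 (SD, n = 3). The lower and upper quartiles lay at 28.5% and 48.0% on NC 1, at 32.3% and 59.1% on NC 2, and at 31.6% and 56.1% on NC 3. NC 1 was shifted to lower levels, while the lower end was alike on all arrays. The 5th percentile was 14.5%, 14.7% and 15.0% in that order, and the 95th percentile was 65.7%, 76.3% and 72.9%.

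**Figure D1:**
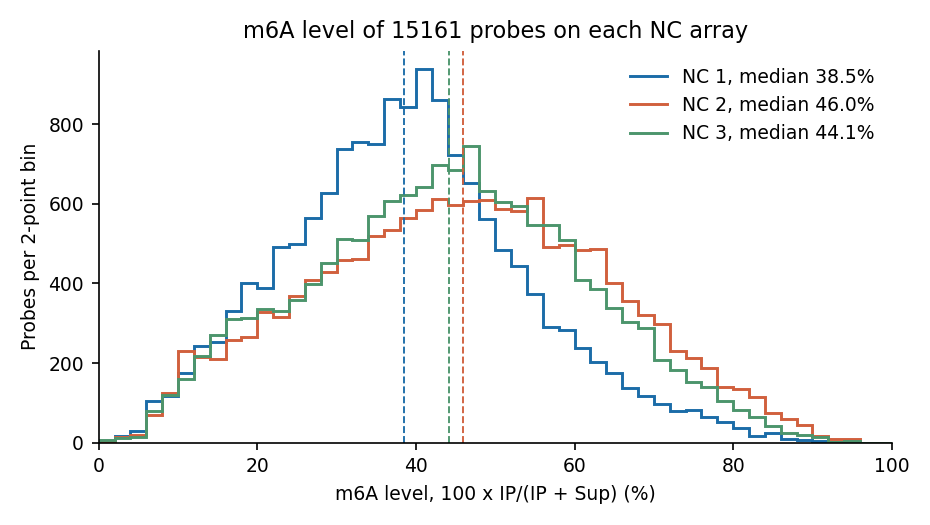
Number of probes in each 2-point bin of the m6A level (x axis, %) on the 3 NC arrays, over 15161 probes. Dashed lines mark the medians of 38.5% (NC 1), 46.0% (NC 2) and 44.1% (NC 3). Each array has a single broad peak, and NC 1 has fewer probes at high levels.

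Extreme levels were rare at the top and more common at the bottom. A level above 80% on all 3 arrays was found for 84 probes, and one below 20% for 1036 probes. Above 90% there were 6 probes, and below 10% there were 126. More RNA in Sup than in IP was seen on all 3 arrays for 8043 probes (53.1%), and more in IP than in Sup for 2935 probes (19.4%). These shares depend on where the spike-in probes set an even split.

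The ratio of IP to Sup was then tested for each probe against an even split, with limma over the 3 NC arrays. A probe was called where the Benjamini-Hochberg adjusted p was under 0.05 and the fold over 1.5. RNA was higher in IP for 2243 of 15161 probes (14.8%) and higher in Sup for 6456 (42.6%), together 8699 (57.4%). The median log2 IP/Sup was 1.05 among the former and -1.29 among the latter, against -0.42 over all probes tested. When each channel was instead centred on its own median, which removes that common shift, 4300 probes (28.4%) lay above the median probe and 4062 (26.8%) below it. All of the 2243 IP-higher probes and 4062 of the 6456 Sup-higher probes were called in the same direction under this centring. Centring moved all probes of an array towards IP by a single value, so this overlap largely follows from the shift. The overlap is therefore no check on the calls. The share of IP-higher among all calls moved from 25.8% to 51.4%. Without NC 3 the IP-higher count was 1470, and the unmoderated test gave 355 IP-higher and 2760 Sup-higher probes.

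The scaling rests on few spike-in probes. Of 102 spike-in probes, 14 passed the same background filter, and their own log2 IP/Sup, before scaling, ran from -2.32 to 2.27 on NC 1, from -1.93 to 1.94 on NC 2 and from -1.92 to 2.04 on NC 3. Their SD was 1.26, 1.07 and 1.16 on these arrays, and that of the sperm RNA probes was 1.05, 1.26 and 1.18. The spike-in probes therefore varied in IP/Sup about as widely as the RNA of the samples. They kept a similar order, with Spearman rho between 0.824 and 0.934 over the pairs of arrays, and the standard error of their mean was 0.34, 0.29 and 0.31. One of them, ASSPINKEIN100006457, was at 2.27 on NC 1, 0.28 on NC 2 and 0.97 on NC 3. Leaving out each spike-in probe in turn, a choice made after these values were seen, put the mean median level between 39.9% and 45.1%, the IP-higher count between 1748 and 2688 and the Sup-higher count between 5704 and 7616. With the median of the spike-in probes in place of the mean, the median level was 51.6% and the calls were 3757 IP-higher and 3337 Sup-higher. Whether the spike-in RNAs carry m6A is not given in the sources used here.

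The order of the probes was much better defined than the position of the even split. The Spearman correlation of log2 IP/Sup over the 15161 probes was 0.857 between NC 1 and NC 2, 0.912 between NC 1 and NC 3 and 0.898 between NC 2 and NC 3. These are descriptions across probes that share arrays, dyes and probe sequences. Each fraction alone agreed more closely, with 0.929 to 0.959 for IP and 0.961 to 0.983 for Sup. The arrays also differed by a shift of the median. The median difference in log2 IP/Sup was -0.45 for NC 1 minus NC 2, -0.33 for NC 1 minus NC 3 and 0.16 for NC 2 minus NC 3, and the SD of the difference over the probes was larger in each pair, at 0.60, 0.43 and 0.50. For a single probe the median SD over the 3 arrays was 0.35, and 0.27 after median centring, while the SD of the mean ratio over the probes was 1.13. After removal of the array means, 90.3% of the variance lay between probes.

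**Figure D2:**
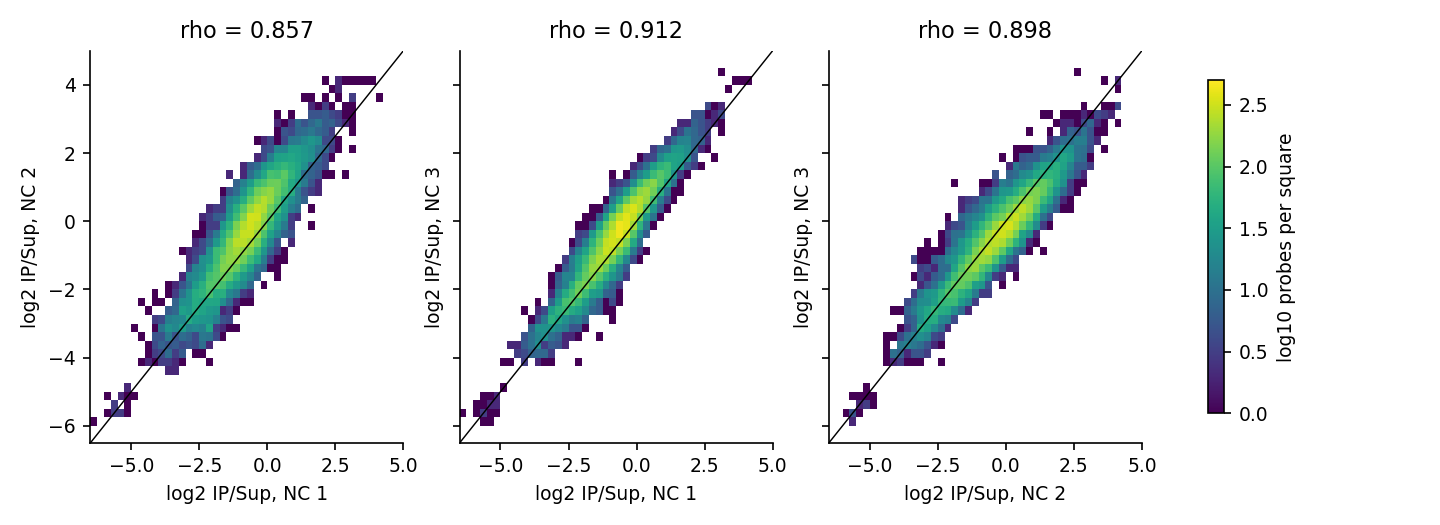
log2 IP/Sup of 15161 probes on each pair of NC arrays, as the log10 number of probes per square of 0.25 by 0.25, with the line of equal values. The cloud follows the diagonal in each pair (rho 0.857, 0.912 and 0.898), lies above it in the pairs with NC 1 on the x axis, and has a separate tail at the low end.

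The ends of the ranking repeated from array to array. Of the 1514 probes in the highest decile of an array, 931 (61.5%) were in the highest decile of all 3. In the lowest decile, 1030 of 1516 (67.9%) were shared. No probe was in the highest decile of one NC array and in the lowest decile of another.

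The amount of an RNA was then set against its m6A level. To keep the noise of a spot out of both measures, the amount was taken from the other 2 NC arrays. NC 1, NC 2 and NC 3 gave a Spearman rho between log2 IP/Sup and amount of -0.066, -0.101 and -0.010, with a mean of -0.059 ± 0.046 (SD, n = 3). All 3 values were weak, and they describe probes that share an array, its dyes and their base composition. Over the deciles of amount (10 groups of equal size), the mean of the median levels went from 43.2% ± 3.45 (SD, n = 3) in the lowest to 41.8% ± 3.58 (SD, n = 3) in the highest decile. The sign of this relation depended on the filter and on how amount was measured. It was 0.0273 with a filter on negative probes, 0.106 with only 1 channel above background and 0.434 with no filter. The relation was -0.206 with a stricter filter and -0.188 with the processed signal. It was -0.300 with Sup alone as the amount and 0.285 with IP alone, each of which is also a term of the ratio. With the scanner software's own background-subtracted signal, an alternative chosen after seeing the data, rho was -0.200. In that setting the median level went from 48.2% ± 5.45 (SD, n = 3) in the lowest decile to 36.0% ± 3.60 (SD, n = 3) in the highest.

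What changed with amount was the spread of the level. The interquartile range of log2 IP/Sup in the lowest decile of amount measured 0.54 (NC 1), 0.86 (NC 2) and 0.73 (NC 3), and in the highest decile it was 1.95, 2.54 and 2.32. It rose by 1.56 ± 0.14 (SD, n = 3) between these deciles, and the highest decile lay above the lowest on every NC array. The quartiles in the highest decile were -1.86 and 0.10 on NC 1, -1.86 and 0.68 on NC 2 and -1.74 and 0.58 on NC 3. In the lowest decile the quartiles were -0.88 and -0.34, -0.61 and 0.25, and -0.79 and -0.06, so the spread widened on both sides. In the lowest decile of amount averaged over all 3 NC arrays, 0.461% of probes were IP-higher and 35.2% Sup-higher. In the highest of these deciles the shares were 20.6% and 47.9%. Because both fractions had to be above background, a dim probe with an extreme ratio could not pass the filter. The spread also rose with amount under looser filters, as given below. How far this requirement set the narrow spread and the few IP-higher calls at low amount was not tested.

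Some signal was also left on the negative controls. After the local background was subtracted, the negative-control spots still had a median signal of 6, 3.5 and 3 in IP and of 12.25, 12 and 11.5 in Sup on NC 1, NC 2 and NC 3. The median signals in the lowest decile of amount were 22, 32 and 35.5 in IP and 29, 32 and 33.5 in Sup. The rise in interquartile range was still 1.49 ± 0.11 (SD, n = 3) with the scanner software's background subtraction and 1.37 ± 0.14 (SD, n = 3) when the negative-control median was subtracted as well, both chosen after seeing the data. The rise was 0.99 ± 0.18 (SD, n = 3) when only 1 channel had to be above background and 0.97 ± 0.14 (SD, n = 3) with no filter. The agreement between arrays rose with amount too. In deciles of amount averaged over all 3 NC arrays, the mean Spearman rho over the pairs was 0.561 in the lowest decile and 0.964 in the highest. The median SD of a probe over the arrays, after median centring, was 0.29 and 0.22, and without background correction it was 0.21 and 0.23, the opposite order.

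**Figure D3:**
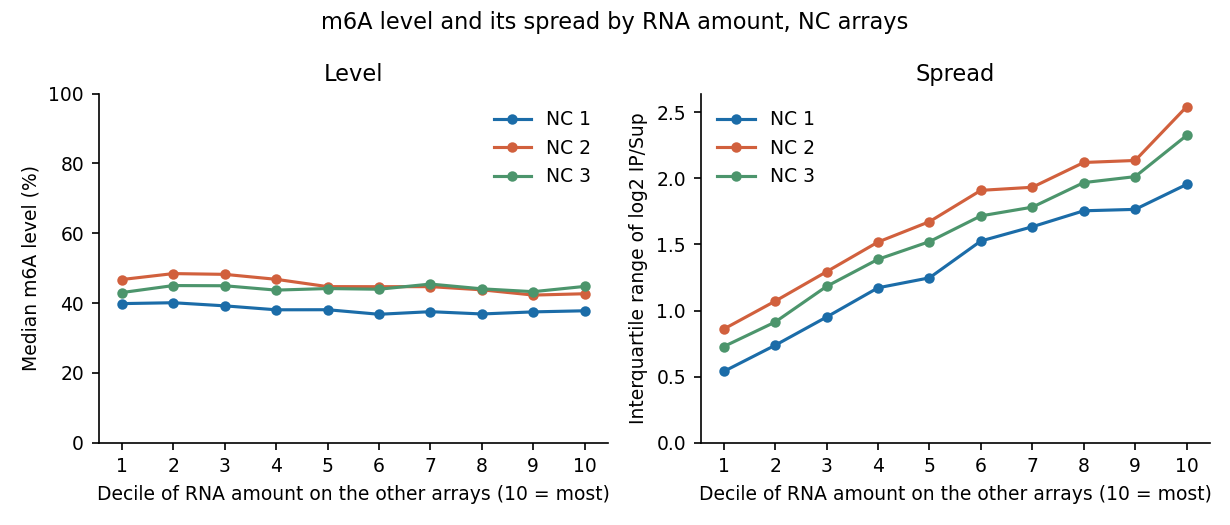
Median m6A level (left, %) and interquartile range of log2 IP/Sup (right) in deciles of RNA amount measured on the other 2 NC arrays, one line per array, 1516 or 1517 probes per point. The median level stays between 36.8% and 48.4%, whereas the interquartile range climbs on every array, to 1.95 on NC 1, 2.54 on NC 2 and 2.32 on NC 3.

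One series of probe IDs held a far larger share of the lowest m6A levels than of all probes compared. Most IDs begin with ASMM10 followed by EP3A, EP3B or SM1, apart from 13 probes of the CUST series and 23 probes with an accession among those compared, and what these letters stand for is not given in the sources used here. The grouping was chosen after the ends of the ranking were seen, so its values are a description without a test. The 636 SM1 probes compared had a median level of 22.8% on NC 1, 20.8% on NC 2 and 19.3% on NC 3. The 12854 EP3A probes were at 38.9%, 46.8% and 44.9%, and the 1635 EP3B probes at 38.7%, 45.4% and 43.7%. SM1 thus lay below both other series on every NC array. The difference of SM1 minus EP3A was -22.6 ± 5.55 percentage points (SD, n = 3). It was -12.1 with a stricter filter, -15.1 with normexp and -7.82 with no filter. Of the SM1 probes, 77.2% were Sup-higher and 2.67% IP-higher, against 41.0% and 15.8% of EP3A.

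SM1 made up 4.19% of the probes compared and 61 of the 126 probes below 10% on all 3 arrays. The others below 10% were 52 EP3A and 13 EP3B probes. Of the 1036 probes below 20% on all 3 arrays, 242 were SM1, 676 EP3A and 118 EP3B. Among the 50 probes with the lowest mean log2 IP/Sup, 35 were SM1. Among the 50 with the highest, 47 were EP3A, the series of 12854 of the 15161 probes compared. No SM1 probe was above 80% on all 3 arrays, where only 84 of all probes compared were. The gap was narrowest in the lowest quintile of RNA amount and widest in the next to highest, on every NC array. In the lowest quintile, SM1 was at 39.9% ± 3.45 and EP3A at 44.0% ± 3.92 (SD, n = 3). In the next to highest quintile they were at 12.2% ± 0.749 and 43.7% ± 4.42, and in the highest quintile at 19.9% ± 0.824 and 41.8% ± 3.42 (SD, n = 3). The same order was found on the HFD arrays, which share the probes and dyes. On 618 SM1 probes, the median level was 21.4%, 19.4% and 20.2% on HFD 1, HFD 2 and HFD 3, and on 12480 EP3A probes it was 48.0%, 46.1% and 47.3%. With SM1 left out, the median level over the NC arrays was 43.4% ± 4.0 and the interquartile range 1.39 ± 0.19 (SD, n = 3), against 42.9% ± 3.88 and 1.43 ± 0.20 with it.

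**Figure D4:**
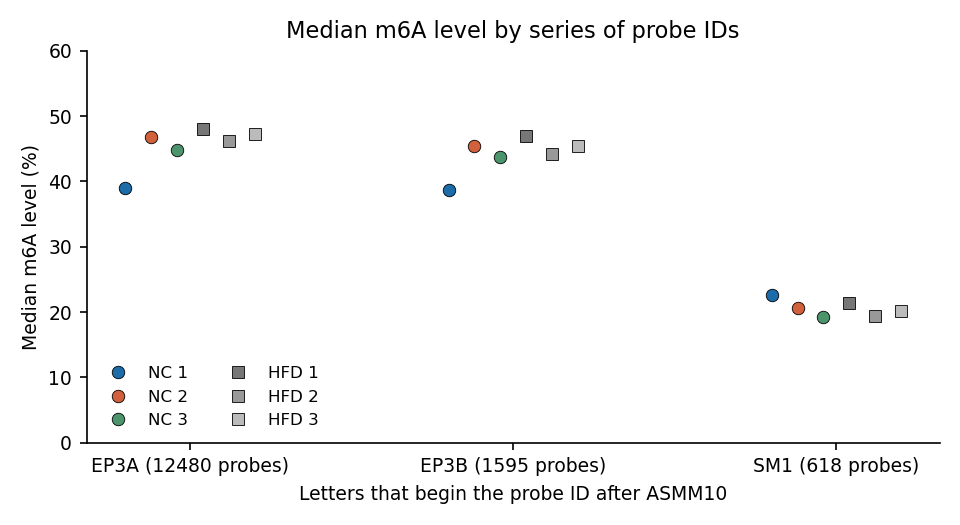
Median m6A level (y axis, %) of the EP3A, EP3B and SM1 series of probe IDs on each array, over the probes that passed the filter on each of the 6 arrays. Circles are NC arrays and squares HFD arrays. SM1 lies between 19.3% and 22.6% on all 6 arrays, below both other series.

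At the ends of the ranking, 2 probes in each direction without a gene name are given. ASMM10EP3A100180827 had an IP signal of 1477, 2025 and 3046 and a Sup signal of 88.5, 112 and 120 on NC 1, NC 2 and NC 3, a level of 93.6%, 94.2% and 94.8%. ASMM10EP3A118559534 had IP signals of 2316, 4093 and 5240 against Sup signals of 176, 199 and 210, a level of 92.0%, 94.9% and 94.7%. Both were almost wholly in the bound fraction on every NC array, with a log2 IP/Sup of 4.03 and 3.97 (standard error 0.21 and 0.23, limma adjusted p = 6.9e-08 and 9.0e-08). The lowest probe, ASMM10SM1100116272, had IP signals of 15, 23 and 34 against Sup signals of 1119, 1150 and 1285, a level of 1.16%, 1.78% and 1.86%. ASMM10SM1100092135 had IP signals of 37, 53 and 71 against Sup signals of 1998, 2225 and 2683, a level of 1.59%, 2.11% and 1.86%. These RNAs were almost wholly unbound, with a log2 IP/Sup of -5.97 and -5.73 (standard error 0.23 and 0.21, limma adjusted p = 4.1e-09 for both). With normexp these were -4.37 and -4.81, and without background correction the former was -5.27.

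Genes could be named for 45 of the 50 probes with an accession, through the GRCm38.p6 gene table of RefSeq. Each of these probes has 10 spots. Of the 45 genes, 22 passed the filter, and 12 of them were IP-higher, 5 Sup-higher and 5 not called. Thus 54.5% of them were IP-higher against 14.8% of all probes, a description without a test. The 23 accession probes compared were also brighter, with a median log2 amount of 1.74 against 0.59 for EP3A. IP-higher calls were rarer at low amount, as given above. The spots of a probe on one array had a median SD of 0.10 in log2 IP/Sup, and the arrays a median SD of 0.33, or 0.18 after median centring.

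The highest of the 22 was Apoe. Apoe (NM_009696), which encodes the lipid carrier apolipoprotein E, had IP signals of 7333, 11190 and 10278 on NC 1, NC 2 and NC 3 against Sup signals of 1449, 1445 and 1402. Its IP signal was several times its Sup signal on every array, and its m6A level was 84.4% ± 3.0 (SD, n = 3), with a log2 IP/Sup of 2.45 (standard error 0.22, limma adjusted p = 1.4e-06). It ranked above 99.5% of all probes compared. Bambi (NM_026505), a decoy receptor of TGF-beta signalling, was at 72.8%, 86.9% and 80.8%. Gpi1 (NM_008155), glucose-6-phosphate isomerase of glycolysis, was at 67.7%, 72.3% and 76.4%. Dnajc11 (NM_172704), a chaperone partner at mitochondrial membranes, was at 68.1%, 78.8% and 76.7%, and Pex11a (NM_011068), which acts in the division of peroxisomes, at 70.4%, 76.3% and 75.3%. All 5 were IP-higher, with limma adjusted p between 1.4e-06 and 0.00015. The fold of the dimmer Bambi and Dnajc11 moved with the background correction. The log2 IP/Sup of Bambi was 2.07, and 1.32 with normexp. That of Dnajc11, whose Sup signals were 28.2, 29 and 31.2, was 1.57, and 0.82 with normexp, 2.20 with the processed signal and 2.24 with the scanner's background-subtracted signal.

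The remaining 3 of the 8 highest genes were Uhrf1bp1l, Cpt1a and Acaa2. Uhrf1bp1l (NM_029166), linked to membrane traffic at endosomes, had a level of 60.6%, 75.6% and 66.9%. Cpt1a (NM_013495), which moves long-chain fatty acids into mitochondria, was at 59.2%, 73.7% and 65.0%. Acaa2 (NM_177470), the thiolase of the last step of mitochondrial beta-oxidation, was at 57.2%, 70.2% and 69.0%. NC 1 was the lowest array for each of these genes, and all 3 were IP-higher, with a log2 IP/Sup of 1.09, 0.97 and 0.94 (limma adjusted p = 0.0017, 0.0032 and 0.0038). Acaa2 was no longer called without NC 3, at a log2 IP/Sup of 0.83 (limma adjusted p = 0.056). Of the 8 fatty acid oxidation genes listed, Cpt1a and Acaa2 have a named probe and both were IP-higher, where 54.5% of the named genes were. Of the 7 membrane traffic genes listed, 4 have a named probe, and among these Uhrf1bp1l was IP-higher, Rab5a was not called and Cav2 and Anxa8 fell outside the comparison. None of the 13 m6A enzymes and readers and none of the 13 spermatogenesis genes listed has a named probe.

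At the lower end, Prdx2 (NM_011563), a peroxiredoxin that removes hydrogen peroxide, had IP signals of 642, 1057 and 1372 against Sup signals of 1846, 2431 and 2556. Its Sup signal was the higher on every array, and its m6A level was 26.5% ± 2.73 (SD, n = 3), with a log2 IP/Sup of -1.48 (standard error 0.21, limma adjusted p = 6.5e-05). Cep41 (NM_031998), a centrosomal and ciliary protein, was at 30.5%, 36.1% and 36.1%. Cep41 was Sup-higher, with a log2 IP/Sup of -0.94 (standard error 0.21, limma adjusted p = 0.0021). It was not called after median centring, at -0.48 (limma adjusted p = 0.027), because its fold was then under 1.5.

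Gsta4 and Actb were called Sup-higher with wider spread. Gsta4 (NM_010357), a glutathione transferase that clears products of lipid peroxidation, was at 28.4%, 47.5% and 41.0%, and Actb (NM_007393), beta-actin, at 30.2%, 43.4% and 45.2%. In both, NC 1 lay well below the other arrays. Without NC 1 neither was called, with a log2 IP/Sup of -0.33 for each (limma adjusted p = 0.24 for Gsta4 and 0.23 for Actb), and without NC 3 neither was called, although their log2 IP/Sup was then -0.74 and -0.80 (limma adjusted p = 0.092 and 0.066). After median centring they were at -0.20 and -0.16 (limma adjusted p = 0.37 and 0.46).

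Tm9sf1, Olfr166 and Gamt completed the 8 lowest, and none was called. Tm9sf1 (NM_028780), a membrane protein of the endosomal system, was at 40.2%, 41.6% and 45.2%. Olfr166 (NM_147068), an olfactory receptor, was at 39.3%, 46.6% and 44.5%, from IP signals of only 20, 30 and 35. Gamt (NM_010255), which makes creatine, was at 46.8%, 52.4% and 52.1%. Gamt lay at an even split under the spike-in scaling, yet above the median probe by 0.49 on the log2 scale (limma adjusted p = 0.023), and its sign changed under several alternatives.

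The other 6 of the 22 genes, Carhsp1, H2-Q7, H2-M2, Nup50, Rps4l and Rab5a, had mean log2 IP/Sup between 0.82 and 0.18. Carhsp1, H2-Q7, H2-M2 and Nup50 were IP-higher. None of these 4 was called without NC 3, with a log2 IP/Sup of 0.78, 0.58, 0.61 and 0.41 (limma adjusted p = 0.074, 0.19, 0.17 and 0.38), and H2-Q7 and H2-M2 were not called without NC 2 either, at 0.58 and 0.47 (limma adjusted p = 0.049 and 0.12). H2-Q7 and H2-M2 belong to the class I histocompatibility family, whose near-identical members may share a probe. Rab5a, the GTPase of early endosomes, varied most, with a level of 40.7%, 67.1% and 50.9% and a log2 IP/Sup of 0.18 (limma adjusted p = 0.60). Without NC 2 it was at -0.24 (limma adjusted p = 0.43). After median centring Rab5a was at 0.65 (limma adjusted p = 0.030) and Rps4l at 0.87 (limma adjusted p = 0.0013). Both were then called, above the median probe.

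**Figure D5:**
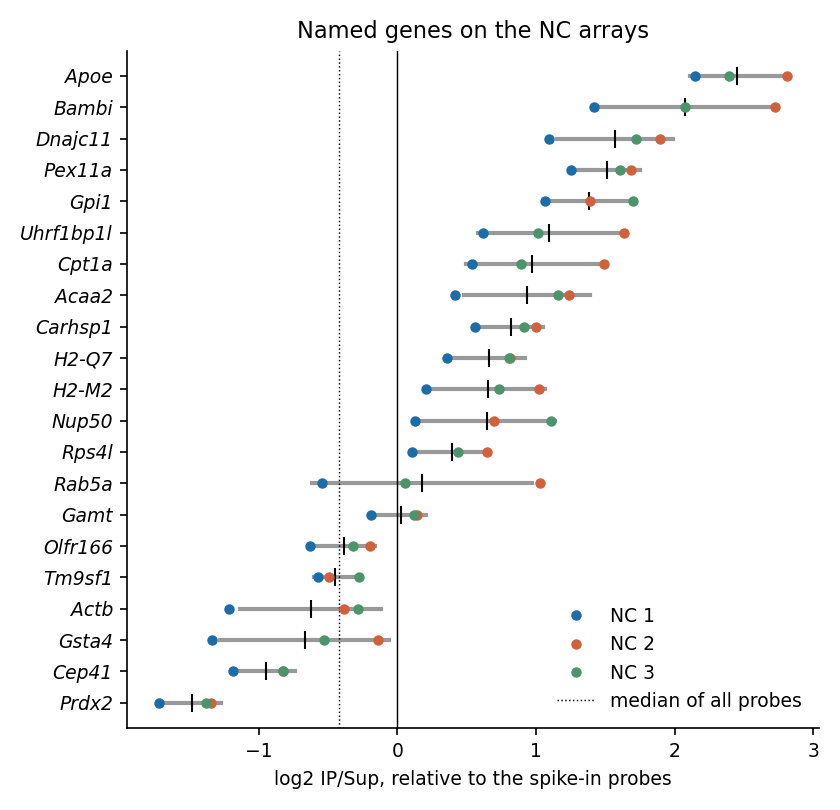
log2 IP/Sup of 21 of the named genes compared, relative to the spike-in probes. Points are the 3 NC arrays, ticks the mean and grey bars the mean ± 1 SD, the solid line is an even split and the dotted line the median of all probes, at -0.42. Apoe is the highest at 2.45 and Prdx2 the lowest at -1.48.

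The other 23 named genes fell outside the comparison. Alkbh4, Chgb, Hyal3 and Ppara were well above background in IP on every NC array and in Sup on none. Atg3, E2f1, Gabrg1, Il2, Lhfp, Mzb1, Olfr1307, Spats1 and Tyr were not well above background in either fraction. The other 10, Anxa8, Cav2, Duox1, Gsdmd, Hspb7, Kcnn2, Lhx1, Mbp, Taf1a and Trp53rka, were well above background in at least 1 fraction on at least 1 NC array, without reaching both fractions on all 3. Gabrg1, Il2 and Tyr, which serve nerve cells, T cells and pigment cells, are thus among those not above background here, as are Atg3, E2f1 and Spats1. Mbp and Chgb, which encode myelin basic protein and chromogranin B, were well above background in IP on every NC array. No cell type is read from these genes.

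The array-level values of NC were also set beside those of HFD, over 14729 probes that passed the background filter for IP and for Sup on each of the 6 arrays. The median m6A level was 42.9% ± 3.91 in NC and 46.3% ± 0.983 in HFD (SD, n = 3 each; exact permutation test, two-sided, p = 0.20, where 0.10 is the smallest p possible). The difference of -3.44 percentage points was -1.24 without NC 1, and it turned to 0.555 with median centring, 1.61 with the median of the spike-in probes, 0.0912 with loess and 0.132 with no filter. The interquartile range of log2 IP/Sup was 1.41 ± 0.20 in NC and 1.56 ± 0.08 in HFD (exact permutation test, two-sided, p = 0.40). The exact permutation test could give no p under 0.05 in this design. The SD of the NC arrays was larger than that of the HFD arrays in both measures. The relation to RNA amount was -0.054 ± 0.046 in NC and -0.050 ± 0.057 in HFD (exact permutation test, two-sided, p = 1). NC 1, NC 2 and NC 3 shared a slide scan with HFD 1 and HFD 2, and HFD 3 was scanned apart.

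The same test of IP against Sup was run on the HFD arrays, which share no sample with NC but do share the probes, the dyes and the spike-in scaling. IP was higher for 2193 probes (14.9%) in NC and 3393 (23.0%) in HFD, and 2151 probes were called in both, 98.1% of the NC list and 63.4% of the HFD list. Sup was higher for 6269 probes (42.6%) in NC and 5416 (36.8%) in HFD, with 5215 in both, 83.2% and 96.3% of the lists. Of the 2193 IP-higher probes of NC, 2177 (99.3%) had IP above Sup on all 3 HFD arrays, where 34.7% of all probes did. One probe, ASMM10EP3B101284672, was called in opposite directions, with a log2 IP/Sup of 0.44, 0.63 and 0.93 in NC and of -0.45, -0.12 and -1.35 in HFD. The Spearman rho of log2 IP/Sup was 0.855 to 0.911 between NC arrays, 0.867 to 0.942 between an NC and an HFD array, and 0.947 to 0.953 between HFD arrays. The lowest correlation between HFD arrays was above the highest between NC arrays. These pairs share arrays and are given as a description.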

How the data were processed

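The authors deposited, for each two-color array, the intensity values that Agilent Feature Extraction 11.0.1.1 made from the scan, as medians per spot and channel with the local background. Per the methods, each channel was normalized by the mean log2 spike-in intensity. Here the local background was subtracted, each channel was divided by the mean (log2) of 14 spike-in probes, and scaled values were floored at 0.01. A non-uniform spot was dropped, and replicate spots were averaged as log2 values. The filter required a share of at least 0.5 of a probe's spots flagged well above background, in IP and in Sup and on every NC array. log2 IP/Sup was tested by lmFit and eBayes of limma (3.58.1, R 4.3.3), and array-level values by exact permutation. The functions were tested on simulated data. Samples were grouped by label, and for NC 3 the title was used because another label names a different replicate. Of the named genes that passed, the 8 highest and 8 lowest are described, except 1 that is not reported here, with 2 unnamed probes per end. Members and lists were chosen with earlier results of these data known. The number of arrays limits the precision. Alternatives covered background, filter, scaling, test, block and replicates left out.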

Additional observations from a re-analysis of the deposited data

Results flagged for a closer look

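Mbp, which encodes myelin basic protein, had a log2 IP/Sup of 0.73, 2.89 and 1.12 in NC against -0.54, -0.90 and -0.0028 in HFD, a difference of 2.06. On Chgb, which encodes chromogranin B of secretory granules, it was 0.93, 0.58 and 0.76 against -1.08, -0.13 and -0.17, a difference of 1.22. On Taf1a, a subunit of the RNA polymerase I machinery, it was -1.01, -0.05 and -0.43 against 0.28, 0.43 and 0.59, a difference of -0.93. The 3 genes were picked out of the 45 named genes by this pattern itself. Under the spike-in scaling, every NC array had to be on one side of an even split and every HFD array on the other. This did not hold for any of the 3 genes after each channel was centred on its median, an alternative added after the values were seen. Mbp was then at 1.49, 3.13 and 1.53 in NC against -0.33, -0.63 and 0.22 in HFD, Chgb at 1.69, 0.82 and 1.18 against -0.86, 0.14 and 0.06, and Taf1a at -0.26, 0.20 and -0.01 against 0.50, 0.70 and 0.82. The differences were not tested, and in none of the genes were both fractions well above background on all 3 NC arrays.

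Control spots named for mouse GAPDH and PGK1 are outside the comparisons above, and 3 of them were well above background in both fractions on the NC arrays. GAPDH_3 had a log2 IP/Sup of 0.15, 0.30 and 0.51 on NC 1, NC 2 and NC 3, a mean of 0.32 ± 0.18 (SD, n = 3). GAPDH_5 was at -1.06, -0.67 and -0.45, a mean of -0.73 ± 0.31 (SD, n = 3), and lay below GAPDH_3 on every NC array. PGK1_3 was at -0.13, 0.78 and 0.28, a mean of 0.31 ± 0.46 (SD, n = 3).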

How the results depend on the processing

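The balance of calls moved with the scaling and with the filter, and median centring and loess bring it near even by construction. IP-higher and Sup-higher probes numbered 4300 and 4062 with median centring (51.4% of calls IP-higher, against 25.8%), 3757 and 3337 with the median of the spike-in probes (53.0%) and 4160 and 4186 with loess (49.8%), and the median m6A level was then 50.9%, 51.6% and 50.6%. The median log2 IP/Sup over all probes was shifted from -0.42 to 0.05, 0.09 and 0.04. A stricter filter gave 1305 and 2256 calls (36.6%), a spread of 1.65, an agreement of 0.925, a relation to amount of -0.206 and an SM1 minus EP3A difference of -12.1. With no filter, Sup-higher probes numbered 44154 of 60407 (4.80% of calls IP-higher), the level was 29.9%, the agreement 0.615, the relation to amount 0.434, the rise of spread with amount 0.97 and the SM1 difference -7.82. A filter on negative probes gave 10384 Sup-higher probes, an agreement of 0.856 and a relation to amount of 0.0273. With 1 channel above background these were 11347 Sup-higher probes and 0.106, with a rise of 0.99. The unmoderated test called 355 and 2760 probes. With normexp, 1479 probes were IP-higher, the spread was 0.91, the relation -0.142, the rise 1.93 and the SM1 difference -15.1. Spread, relation and rise were 1.21, -0.108 and 1.77 without background correction. Spread and relation were 1.69 and -0.188 with the processed signal and 1.71 and -0.200 with the scanner's background-subtracted signal. Relation and rise were -0.184 and 1.37 with the negative-control median subtracted, and the SD over probes gave a spread of 1.16. With amount from Sup alone the relation was -0.300, and with amount from IP alone 0.285. The causes of these changes were not tested.

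For NC minus HFD, the difference in median level of -3.44 turned to 0.132 with no filter, 0.555 with median centring, 1.61 with the median of the spike-in probes and 0.0912 with loess. The difference in the relation to amount of -0.0044 turned to 0.000687 with 1 channel above background, 0.000531 with the stricter filter, 0.00147 with non-uniform spots kept, 0.0138 with median centring, 0.0217 with the median of the spike-in probes and 0.0211 without NC 1. With 3 against 3 arrays the exact permutation test could give no p under 0.05.

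Leaving out each replicate in turn gave 1470 (without NC 3) to 3085 (without NC 1) IP-higher and 5287 to 7113 Sup-higher probes, a median level of 41.3% to 45.1%, a spread of 1.34 to 1.54, a relation to amount of -0.079 to -0.032 and an agreement of 0.858 to 0.913. The rise of spread was 1.52 to 1.62 and the SM1 difference -25.8 to -20.8. NC minus HFD ranged from -5.00 to -1.24 for the level, -0.23 to -0.04 for the spread and -0.022 to 0.0211 for the relation.

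Same-numbered NC and HFD arrays did not deviate together (correlations -0.06, -0.14 and -0.28). No pairing by number was evident, but 3 arrays per group cannot decide whether the numbers pair the samples. With the replicate number as a block, the level, spread and relation of NC minus HFD had p = 0.50, 0.75 and 1 (exact permutation test, smallest possible 0.25). Without the pairing of IP and Sup within an array (no replicate block), 2059 probes were IP-higher and 6210 Sup-higher.

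Over 26 named genes and probes and 17 alternatives, 371 of 432 values kept direction and side of the threshold, 39 were no longer called, 8 became called and 14 changed sign. For Rab5a the value was 0.65 with median centring. With a replicate left out it ranged from -0.24 without NC 2 to 0.54 without NC 1, and the first has the opposite sign. It changed for Gamt at -0.0061 without background correction, -0.022 with normexp, -0.26 with the processed signal, -0.20 with the scanner's background-subtracted signal, -0.18 with the negative-control median subtracted, -0.033 without NC 2 and -0.024 without NC 3, against 0.131 without NC 1. It changed for Olfr166 at 0.086, 0.129 and 0.160 and for Tm9sf1 at 0.023, 0.066 and 0.042 with median centring, the median of the spike-in probes and loess. Agreement between arrays was lower where signal was low. The mean rho was 0.561 in the lowest and 0.964 in the highest decile of RNA amount, averaged over all 3 NC arrays.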
